A study of Mus musculus with 9 samples.

Results

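The genes described here encode the initiation and elongation factors of cytosolic translation. They were chosen by name, as the rows of the count table whose NCBI Gene ID maps to a mouse symbol beginning with Eif1 to Eif6, Eef1 or Eef2. The kinases Eif2ak1, Eif2ak2, Eif2ak3 and Eif2ak4, together with Eif2s1 and Eif4a3, were set aside by the rule. This gave 65 of the 27179 gene rows. A total of 59 of the 65 had enough counts to be tested. The data came from RNA immunoprecipitation sequencing (RIP-seq), in which RNA that comes down with a protein is sequenced. The protein was phosphorylated UPF1 (p-UPF1), and the question was which RNAs it associates with in B cells. Wild-type mice provided splenic B cells (CD43- cells), and every library came from cells activated for 72 h with CD40L at 5 ug/mL, anti-IgM antibody at 10 ug/mL and IL-4 at 20 ng/mL. The study's methods name an anti-CD40 antibody in the place of CD40L. RNA was sequenced from the precipitate of an anti-p-UPF1 antibody (p-UPF1, n = 3), from that of normal rabbit IgG (IgG, n = 3) and from the lysate before precipitation (input, n = 3). Genotype and stimulus were shared by all groups, and the labels give no strain, age or sex. Activated splenic B cells stood in for the early B cell precursors of the study, which were too few for the assay.

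Total counts ran from 17372510 to 18550508 in the IgG libraries, from 19873687 to 24945286 in the input libraries and from 23251890 to 24802119 in the p-UPF1 libraries. The B cell markers Cd79a, Cd79b, Ms4a1, Cd22 and Pax5 were all measured, and their summed level, in counts relative to the library total scaled by the trimmed mean of M-values (CPM, TMM), was 2436 to 2451 CPM in input, 1662 to 1707 CPM in IgG and 1506 to 1568 CPM in p-UPF1. Single markers did not all follow the sum, since Cd22 and Pax5 exceeded input in p-UPF1 by 0.95 and 1.65 log2 units, and Pax5 was 2.07 higher in IgG than in input. The 3 T cell markers summed to at most 0.815 CPM, and the neutrophil, erythroid and NK cell markers were at or near 0. Of the 3 monocyte and macrophage markers, Adgre1 stood at 131 ± 6.27 CPM in input and 57.8 ± 1.14 CPM in p-UPF1 (SD, n = 3), while the defining markers Lyz2 and Csf1r stayed at or below 0.293 CPM on average in every group. Their part in the results was not tested. In a level measured in bulk lysate, such as that of Adgre1 in input, the number of cells that hold an RNA and its amount per cell cannot be told apart. How much RNA each antibody recovered was not measured, so every difference below is relative to the typical RNA of the same library.

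Translation of an mRNA starts when the cap-binding complex eIF4F recruits the small ribosomal subunit, which carries eIF3, the initiator tRNA bound to eIF2, and eIF1 and eIF1A, the factors that keep start-codon recognition accurate. eIF5 and eIF5B then release eIF2 and join the large subunit, eEF1 delivers each aminoacyl-tRNA, and eEF2 moves the ribosome along. UPF1 is an RNA helicase of nonsense-mediated mRNA decay (NMD) that scans mRNAs and is phosphorylated where translation terminates in an unfavourable setting, for example far from the poly(A) tail or ahead of an exon junction. mRNAs of the translation machinery are known for short untranslated regions, and many of them begin with a C followed by further pyrimidines, the 5′ terminal oligopyrimidine tract through which their translation follows the mTOR pathway.

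The start of the transcript is therefore shown for the factors at the ends of the range. Among the members with a single start in the RefSeq promoter table, these are the 5 with the lowest and 4 of the 5 with the highest log2 fold change of p-UPF1 over IgG at a mean of at least 10 CPM. Each window covers 30 bases of GRCm38.p6 on the strand of the gene, the last 10 bases before the annotated start and the first 20 bases from it. These 20 belong to the 5′ untranslated region (UTR), except in Eif3f, where the last 3 are coding. Capitals mark every run of at least 5 bases, each C or T, that begins with C, searched on the strand shown and not on the other. The windows of the lowest factors lie at chr9:78481705-78481734 (minus strand), chr1:63176821-63176850 (plus), chr2:105017008-105017037 (minus), chr13:38659009-38659038 (minus) and chr7:108934405-108934434 (plus), in the order given here.
Eef1a1: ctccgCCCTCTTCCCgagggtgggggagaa
Eef1b2: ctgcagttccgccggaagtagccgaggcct
Eif3m: cggtcggcgtgtttctggatcggagcgtct
Eef1e1: gtcctagctgtgcaggccccgCCTCCCTag
Eif3f: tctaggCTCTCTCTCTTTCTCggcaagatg

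The windows of the highest factors lie at chr12:111538091-111538120 (plus strand), chr19:5366803-5366832 (plus), chr5:124579112-124579141 (minus) and chr2:122028570-122028599 (plus).
Eif5: cgacgtgcatgcgagccaatgacaagagaa
Eif1ad: gCTTTCgatggCTTTTgtttctccagcggc
Eif2b1: tcgatttccggcgccgacgagtgacgccac
Eif3j1: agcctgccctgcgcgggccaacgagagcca
The longest runs among the 9 belong to Eif3f and Eef1a1, at 15 and 10 bases, of which 4 and 5 lie ahead of the annotated start. By contrast, Eef1b2 and Eif3m among the lowest factors and Eif5, Eif2b1 and Eif3j1 among the highest hold no run. Over all tested members with any start in that table, 17 of 45 held such a run in the window of a start (37.8%). The share was 42.3% of the 9998 tested genes with a start, and genes with several starts were counted once. The share was 8 of 21 (38.1%) among members lower in p-UPF1 than in IgG and 2 of 6 among the higher ones. Across all tested genes the shares were 42.2% of lower and 42.6% of higher genes, so the run in this window was about as common on either side. The start given by the table may differ from the start used in these cells, which was not measured.

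Factor mRNAs took up a smaller share of the p-UPF1 libraries than of either background. The 65 genes together held 3.36%, 3.35% and 3.37% of the counts in the 3 input libraries, 3.29%, 3.25% and 3.20% in the IgG libraries and 1.39%, 1.40% and 1.38% in the p-UPF1 libraries. No p-UPF1 library came near an input or IgG library. Eef1a1 and Eef2 alone made up 1.45% ± 0.0154 of input, 1.38% ± 0.0328 of IgG and 0.239% ± 0.00672 of p-UPF1 counts (SD, n = 3). Without them the members still fell short in p-UPF1, at 1.15% ± 0.0113 against 1.87% ± 0.0148 in IgG and 1.91% ± 0.00776 in input (SD, n = 3).

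Eef1a1, Eef2 and most subunits of eIF3 were far lower in the p-UPF1 precipitate, whereas 8 factors, among them the cap-binding Eif4e2 and Eif4e3, were higher. With edgeR's quasi-likelihood test, an adjusted p below 0.05 and a log2 fold change of at least 1, 28 of the 59 tested members were lower in p-UPF1 than in IgG (47.5%), where 21.9% of all 13129 tested genes were. By the same measure 8 members were higher (13.6%), where 22.2% of all tested genes were. Scaled by library size alone or by upper quartiles, the split was 32 lower and 4 higher, and Eif3j1, Eif2b1, Eif1ad and Eif4e2 no longer reached a log2 fold change of 1 (0.86, 0.86, 0.92 and 0.97 by library size alone). Against input, 30 members were lower by at least 1 (50.8%, with 24.5% of all genes), and 18 of these were lower by at least 2 (30.5%, with 9.67% of all genes). Against input 5 members were higher by at least 1 (8.47%, with 22.5% of all genes). The median log2 fold change of the members was -0.92 over IgG and -1.20 over input, beside -0.03 and -0.03 over all tested genes. The comparisons with IgG and with input share the p-UPF1 libraries.

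The study called an RNA p-UPF1-bound when it was higher by at least 1 log2 unit over IgG and by at least 2 over input, each at an adjusted p below 0.05. None of the 59 tested members met this combined criterion, which 6.25% of all tested genes met. The count was also 0 by DESeq2 and by limma-voom. The largest log2 fold change over input among the members was 1.45, for Eif4a2, so the fold minimum alone left none, and the count with edgeR at an unadjusted p below 0.05 was 0 as well. Library by library, all 3 p-UPF1 libraries lay below all 3 IgG libraries for 40 members (67.8%), above them for 14 (23.7%), and overlapped them for 5. Over all tested genes these shares were 41.5%, 40.6% and 17.9%.

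**Figure D1:**
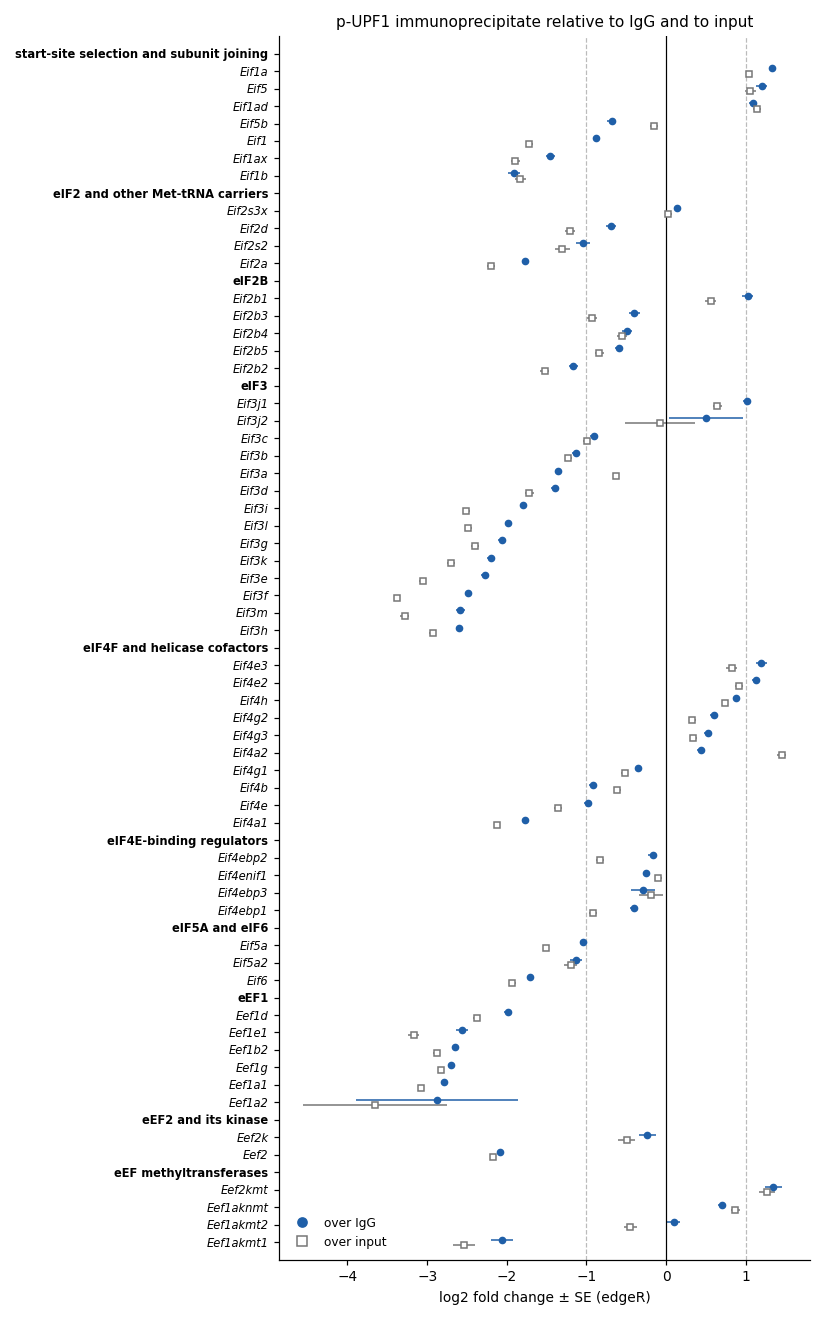
Log2 fold change with its SE for each of the 59 tested factor genes (rows, grouped by complex), p-UPF1 over IgG as filled circles and p-UPF1 over input as open squares, with dashed lines at -1 and 1. The eEF1 genes and most eIF3 genes sit left of -1 in both comparisons, and Eif3j1 is the eIF3 gene to the right of 0 in both.

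The eEF1 genes Eef1a1, Eef1a2, Eef1b2, Eef1d, Eef1e1 and Eef1g were the group with the lowest median. They encode eEF1, which brings aminoacyl-tRNAs to the ribosome, and Eef1e1, a protein named with it that belongs to the multi-aminoacyl-tRNA synthetase complex. All 6 genes of the group were lower in p-UPF1 than in IgG by at least 1 log2 unit, where 21.9% of all tested genes were, although the call of Eef1a2 was not stable. Their median was -2.67 against IgG and -2.98 against input. Eef1a1, the GTPase that carries the aminoacyl-tRNA (chr9:78478453-78481724, GRCm38.p6), stood at 7297, 7248 and 7242 CPM in the input libraries, 5963, 6007 and 5790 in the IgG libraries and 841, 871 and 868 in the p-UPF1 libraries. Every p-UPF1 library lay far below every IgG and input library. The log2 fold change over IgG was -2.78 ± 0.03 (SE, adjusted p = 1.3e-18) by edgeR, and -3.08 over input.

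The subunits of eEF1B, the exchange factor that reloads eEF1A with GTP, moved with it. Eef1b2, its catalytic subunit (chr1:63176831-63180486), stood at 1278, 1282 and 1250 CPM in the input libraries, 1139, 1068 and 1040 in the IgG libraries and 180.3, 167 and 171 in the p-UPF1 libraries. Eef1g, the subunit that holds the complex together, stood at 1458, 1466 and 1443 CPM in the input libraries, 1332, 1333 and 1344 in the IgG libraries and 199, 212 and 206 in the p-UPF1 libraries. For both genes the p-UPF1 libraries lay well below all others and the IgG libraries lay slightly below input. Log2 fold changes over IgG were -2.65 ± 0.04 (SE, adjusted p = 1.4e-17) for Eef1b2 and -2.70 ± 0.04 (SE, adjusted p = 2.8e-18) for Eef1g by edgeR. Eef1d, a further exchange subunit, had a log2 fold change over IgG of -1.99, at 47.0 ± 2.41 CPM in p-UPF1 beside 187 ± 3.61 CPM in IgG (SD, n = 3). Eef1e1, the synthetase adaptor, stood at 64.9, 67.2 and 64.1 CPM in the input libraries, 42.1, 44.0 and 42.8 in the IgG libraries and 7.33, 7.95 and 6.53 in the p-UPF1 libraries. Its p-UPF1 libraries again lay apart, with a log2 fold change over IgG of -2.56 ± 0.07 (SE, adjusted p = 5.4e-15) by edgeR. Eef1a2, the paralogue of Eef1a1 used in muscle and neurons, had 16, 15 and 9 counts in the input libraries, 0, 11 and 10 in the IgG libraries and 1, 2 and 0 in the p-UPF1 libraries. Its adjusted p over IgG was 0.016 by edgeR, its IgG and p-UPF1 libraries overlapped, and limma-voom and 3 of the 9 fits that left out a library did not call it.

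Eef2, the translocase that moves the ribosome by a codon (chr10:81176631-81182509), stood at 7401, 7404 and 7509 CPM in the input libraries, 7056, 7040 and 6928 in the IgG libraries and 1575, 1685 and 1686 in the p-UPF1 libraries. The p-UPF1 libraries were far below both backgrounds, which were close to each other. The log2 fold change was -2.09 ± 0.03 (SE, adjusted p = 1.3e-17) over IgG by edgeR and -2.17 over input. Eef2k, the kinase that inhibits eEF2, differed little. It stood at 21.2, 21.3 and 20.0 CPM in the input libraries, 17.4, 14.3 and 20.6 in the IgG libraries and 14.8, 15.1 and 14.5 in the p-UPF1 libraries. An IgG library fell below all p-UPF1 libraries, and the log2 fold change over IgG of -0.24 ± 0.11 (SE, adjusted p = 0.048) by edgeR lost its call under most alternatives.

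**Figure D2:**
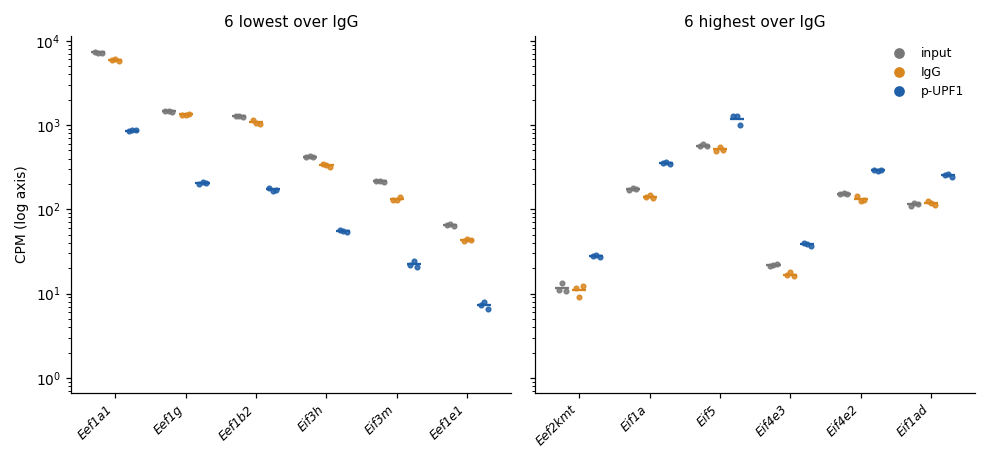
TMM-normalised CPM (log axis) in each library for the 6 lowest and the 6 highest factor genes by log2 fold change of p-UPF1 over IgG at a mean of at least 10 CPM. Points are libraries and bars are means, and in all 12 genes the p-UPF1 points lie apart from the IgG and input points, below them on the left and above them on the right.

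eIF3, the largest initiation factor, bridges the small ribosomal subunit and the mRNA. Of its 14 genes, 11 were lower in p-UPF1 than in IgG by at least 1 log2 unit and 1 was higher, where 21.9% and 22.2% of all tested genes were. The median was -1.89 over IgG and -2.44 over input. As a share of the libraries the complex made up 0.196% ± 0.00349 in p-UPF1, beside 0.588% ± 0.00408 in IgG and 0.602% ± 0.00131 in input (SD, n = 3). The lowest values belonged to the subunits Eif3h, Eif3m, Eif3f and Eif3e. Eif3f (chr7:108934415-108941942), whose annotated start lies within the 15-base pyrimidine run shown above, stood at 755, 762 and 766 CPM in the input libraries, 414, 406 and 413 in the IgG libraries and 73.2, 72.0 and 74.2 in the p-UPF1 libraries. Eif3h stood at 417, 424 and 421 CPM in the input libraries, 345, 336 and 319.6 in the IgG libraries and 56.2, 55.0 and 54.4 in the p-UPF1 libraries. Eif3m stood at 219, 216 and 213 CPM in the input libraries, 130.0, 130.1 and 139 in the IgG libraries and 22.1, 24.1 and 20.5 in the p-UPF1 libraries. In all 3 genes the groups were fully separate, with input highest, IgG between and p-UPF1 lowest. By edgeR, log2 fold changes over IgG were -2.49 ± 0.04 (SE, adjusted p = 5.2e-18) for Eif3f, -2.60 ± 0.04 (SE, adjusted p = 1.2e-17) for Eif3h and -2.58 ± 0.06 (SE, adjusted p = 2.5e-16) for Eif3m.

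The other subunits of eIF3 followed at smaller sizes. Against IgG the log2 fold changes were -2.28 for Eif3e, -2.20 for Eif3k, -2.06 for Eif3g, -1.98 for Eif3l and -1.79 for Eif3i. The cap-contacting subunit Eif3d was at -1.40, and the large subunits Eif3a, Eif3b and Eif3c were at -1.35, -1.14 and -0.91. The 3 large subunits were thus closer to the IgG level than the other subunits, apart from the Eif3j copies. Eif3a was also the eIF3 gene that IgG held more of than input, at 1033, 1051 and 1021 CPM in the input libraries, 1679, 1780 and 1686 in the IgG libraries and 681, 664 and 670.3 in the p-UPF1 libraries. Its p-UPF1 libraries lay below both, and the distance to IgG exceeded the distance to input.

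Eif3j1, a loosely attached subunit that sits in the decoding centre, stood out from the complex (chr2:122028580-122053632). It stood at 77.2, 81.0 and 77.3 CPM in the input libraries, 56.3, 65.9 and 59.5 in the IgG libraries and 123, 124 and 121 in the p-UPF1 libraries. All p-UPF1 libraries lay above all input libraries, which lay above all IgG libraries. The log2 fold change was 1.02 ± 0.05 (SE, adjusted p = 2.0e-11) over IgG and 0.64 ± 0.05 (SE, adjusted p = 5.8e-09) over input by edgeR. Eif3j2 is a copy with an annotated transcript of 2419 bases, beside 2413 for Eif3j1, so reads may be split between the copies. Their sequences were not compared here. For Eif3j2, the 4.89, 1.04 and 3.4 CPM in p-UPF1 overlapped the 4.09, 1.58 and 0.975 CPM in IgG (adjusted p = 0.32 by edgeR). They also overlapped the 3.2, 3.63 and 3.06 CPM in input.

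**Figure D3:**
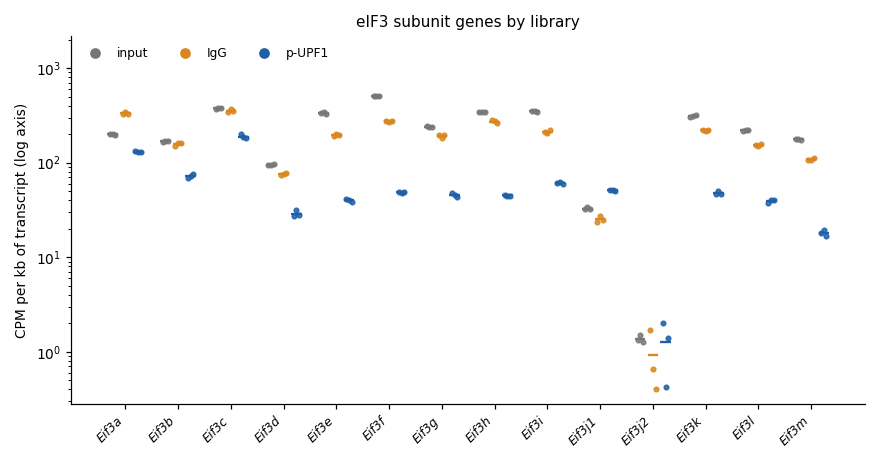
CPM per kilobase of annotated transcript (log axis) for the 14 eIF3 genes, with a point for each library and a bar for each group mean. In 12 genes the p-UPF1 points lie below the IgG and input points, in Eif3j1 they lie above, and in Eif3j2 the groups overlap.

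Factors of start-site selection and subunit joining lay on both sides of IgG. Of the 7 genes, 3 were higher than IgG by at least 1 log2 unit (Eif1a, Eif5 and Eif1ad) and 2 were lower (Eif1b and Eif1ax), where 22.2% and 21.9% of all tested genes were. Eif1 and Eif5b were lower by less. Eif5, the GTPase-activating factor of eIF2 (chr12:111538101-111546753), stood at 560.1, 590.1 and 561 CPM in the input libraries, 498, 546 and 504 in the IgG libraries and 1268, 1281 and 1009 in the p-UPF1 libraries. All p-UPF1 libraries exceeded all others, with library C some way below A and B. The log2 fold change was 1.20 ± 0.07 (SE, adjusted p = 8.7e-11) over IgG and 1.06 over input by edgeR. Eif1ad, which encodes a protein with an eIF1A-like domain, stood at 111, 118 and 115 CPM in the input libraries, 127, 118 and 112 in the IgG libraries and 253, 262 and 242 in the p-UPF1 libraries. Here input and IgG overlapped and p-UPF1 lay above both, at 1.08 ± 0.05 (SE, adjusted p = 2.6e-12) over IgG by edgeR.

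The eIF1A paralogues went opposite ways. Eif1a stood at 169, 177 and 173 CPM in the input libraries, 141, 146 and 137 in the IgG libraries and 358, 362 and 348 in the p-UPF1 libraries. Eif1ax, the X-linked copy (chrX:159372178-159389621), stood at 147, 147 and 143 CPM in the input libraries, 102, 116 and 104 in the IgG libraries and 38.7, 38.2 and 41.1 in the p-UPF1 libraries. The p-UPF1 libraries were thus the highest of all for Eif1a and the lowest of all for Eif1ax. Log2 fold changes over IgG were 1.33 ± 0.04 (SE, adjusted p = 1.3e-14) for Eif1a and -1.45 ± 0.06 (SE, adjusted p = 2.4e-13) for Eif1ax by edgeR. The coding regions of these genes have the same annotated length of 435 bases, and their sequences were not compared here. Where they are alike, the split of reads between the genes may depend on the counting. Eif1, the gatekeeper of start-codon choice, stood at 421, 418 and 418 CPM in the input libraries, 240.2, 235 and 227 in the IgG libraries and 123, 133 and 125 in the p-UPF1 libraries. Its paralogue Eif1b stood at 42.1, 43.6 and 45.3 CPM in the input libraries, 46.7, 43.0 and 48.3 in the IgG libraries and 12.3, 13.0 and 11.5 in the p-UPF1 libraries. Both were lowest in p-UPF1, and for Eif1b input and IgG overlapped while for Eif1 they lay apart. Their log2 fold changes over IgG were -0.88 and -1.91. Eif5b, which joins the subunits, was at -0.69 over IgG and at -0.15 over input, and IgG held more of it (383 ± 29.5 CPM) than input (264 ± 4.47 CPM; SD, n = 3).

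eIF2 carries the initiator tRNA, and eIF2B recharges it with GTP. Eif2s2, its beta subunit, stood at 379, 393 and 376 CPM in the input libraries, 338, 319.7 and 304 in the IgG libraries and 188, 148 and 129.8 in the p-UPF1 libraries. The p-UPF1 libraries lay below the rest but spread more than for most members. Its log2 fold change over IgG was -1.05 ± 0.09 (SE, adjusted p = 1.4e-08) by edgeR. Eif2s3x, the X-linked gamma subunit, stood at 194, 203 and 192 CPM in the input libraries, 174, 183 and 185 in the IgG libraries and 204, 206 and 189 in the p-UPF1 libraries. The p-UPF1 libraries lay slightly above IgG and on both sides of the input libraries, and the log2 fold change over IgG of 0.14 turned to -0.02 when scaled by library size alone. The alternative initiator-tRNA carriers Eif2a and Eif2d were at -1.77 and -0.69 over IgG. Both overlap genes on the other strand that went the opposite way, Serp1 (1.71) and Rassf5 (2.07). Among the 5 eIF2B subunits, the median was -0.49 over IgG, and Eif2b2, Eif2b5, Eif2b4 and Eif2b3 were lower at -1.17, -0.59, -0.49 and -0.40. Eif2b1, the alpha subunit that senses phosphorylated eIF2 (chr5:124570214-124579131), was the exception. It stood at 61.8, 65.6 and 62.5 CPM in the input libraries, 43.5, 52.7 and 41.0 in the IgG libraries and 93.8, 91.8 and 93.8 in the p-UPF1 libraries. Every p-UPF1 library lay above every other library, and the log2 fold change was 1.03 ± 0.07 (SE, adjusted p = 6.3e-10) over IgG and 0.56 over input by edgeR.

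In eIF4F, the complex of cap-binding protein, helicase and scaffold, the canonical subunits were lower and their paralogues were higher in p-UPF1. Of the 10 tested genes of the complex and its helicase cofactors, 2 were higher and 1 was lower than IgG by at least 1 log2 unit. Of all tested genes, 22.2% and 21.9% were. At any fold with an adjusted p below 0.05, 6 were higher and 4 were lower, where 40.4% and 42.2% of all tested genes were. The median was 0.48 against IgG and 0.34 against input. Eif4a1, the main RNA helicase (chr11:69666936-69672423), stood at 579, 596 and 594 CPM in the input libraries, 458, 465 and 460.4 in the IgG libraries and 131, 135 and 140.0 in the p-UPF1 libraries. Eif4a2, its paralogue (chr16:23107468-23114132), stood at 275, 249 and 257 CPM in the input libraries, 573, 506 and 498 in the IgG libraries and 724, 686 and 724 in the p-UPF1 libraries. The order of the groups was reversed between these genes, input highest for Eif4a1 and lowest for Eif4a2, with IgG between in both. Log2 fold changes over IgG were -1.77 ± 0.04 (SE, adjusted p = 2.4e-16) for Eif4a1 and 0.44 ± 0.05 (SE, adjusted p = 9.3e-07) for Eif4a2 by edgeR. Over input, Eif4a2 reached 1.45 ± 0.05 (SE, adjusted p = 1.6e-13), beside 1.01 for IgG over input.

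Eif4e, the cap-binding protein (chr3:138526191-138559696), stood at 135, 139 and 131 CPM in the input libraries, 106, 108 and 98.0 in the IgG libraries and 53.4, 51.4 and 53.5 in the p-UPF1 libraries. Eif4e2, a cap-binding paralogue that represses translation (chr1:87213911-87240488), stood at 152, 157 and 151 CPM in the input libraries, 143, 124 and 130.4 in the IgG libraries and 291, 286 and 291 in the p-UPF1 libraries. Eif4e3, a weaker cap binder (chr6:99621879-99692873), stood at 21.3, 21.7 and 22.3 CPM in the input libraries, 16.4, 17.9 and 16.2 in the IgG libraries and 39.9, 38.9 and 36.6 in the p-UPF1 libraries. In Eif4e the p-UPF1 libraries were the lowest, and in both paralogues they were the highest, with no overlap. Against IgG these came to -0.98 ± 0.05 (SE, adjusted p = 1.0e-11), 1.13 ± 0.05 (SE, adjusted p = 1.0e-12) and 1.19 ± 0.07 (SE, adjusted p = 5.9e-11) log2 units by edgeR, in that order. Among the scaffolds, Eif4g1 stood at 634, 661 and 652 CPM in the input libraries, 551, 590.4 and 586 in the IgG libraries and 453, 436 and 466 in the p-UPF1 libraries. Eif4g2, which lacks the eIF4E-binding region, stood at 1662, 1734 and 1668 CPM in the input libraries, 1370, 1448 and 1390 in the IgG libraries and 2016, 2097 and 2246 in the p-UPF1 libraries. Eif4g3 stood at 210.4, 214 and 215 CPM in the input libraries, 183, 189.8 and 193 in the IgG libraries and 276, 249 and 286 in the p-UPF1 libraries. The p-UPF1 libraries were the lowest for Eif4g1 (-0.35 over IgG) and the highest for Eif4g2 (0.60) and Eif4g3 (0.52), with no overlap between groups in any of the 3 genes. The helicase cofactors parted in the same manner. Eif4h was higher, at 864 ± 17.0 CPM in p-UPF1 against 469.9 ± 8.81 in IgG (SD, n = 3), while Eif4b was lower, at 677 ± 21.7 against 1284 ± 56.1 CPM (SD, n = 3). Their log2 fold changes over IgG were 0.88 ± 0.04 (SE, adjusted p = 5.0e-13) and -0.92 ± 0.04 (SE, adjusted p = 1.4e-12) by edgeR.

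The eIF4E-binding regulators stayed within 1 log2 unit of both backgrounds. Eif4ebp1, a repressor that mTOR inactivates, stood at 153, 166 and 159 CPM in the input libraries, 107, 115 and 112 in the IgG libraries and 87.9, 85.8 and 78.5 in the p-UPF1 libraries. Its paralogue Eif4ebp2 stood at 139, 141 and 139 CPM in the input libraries, 88.8, 81.5 and 95.1 in the IgG libraries and 78.4, 80.6 and 77.0 in the p-UPF1 libraries. In both genes p-UPF1 was lowest and input highest, and the log2 fold changes were -0.40 and -0.17 over IgG and -0.92 and -0.83 over input. Eif4ebp3 stood at 11.2, 11.4 and 11.8 CPM in the input libraries, 9.19, 11.6 and 15.9 in the IgG libraries and 10.7, 9.12 and 10.1 in the p-UPF1 libraries. Its p-UPF1 and IgG libraries overlapped, and it did not pass the test in either comparison (adjusted p = 0.079 and 0.24 by edgeR), and Eif4enif1, which takes eIF4E to the nucleus and to P-bodies, was at -0.25 over IgG. eIF5A, the hypusine-bearing factor that helps the ribosome past difficult peptide bonds, and eIF6, which keeps the ribosomal subunits apart, were lower throughout. Eif5a stood at 1180, 1223 and 1189 CPM in the input libraries, 838, 889 and 882 in the IgG libraries and 420.1, 433 and 413 in the p-UPF1 libraries. Its paralogue Eif5a2 stood at 30.0, 28.6 and 28.9 CPM in the input libraries, 27.7, 26.5 and 29.4 in the IgG libraries and 11.9, 13.8 and 12.4 in the p-UPF1 libraries. The p-UPF1 libraries lay below all others for both, and input and IgG overlapped for Eif5a2. Their edgeR log2 fold changes over IgG were -1.04 ± 0.04 (SE, adjusted p = 1.2e-13) for Eif5a, -1.14 ± 0.08 (SE, adjusted p = 6.1e-10) for its paralogue Eif5a2 and -1.70 ± 0.04 (SE, adjusted p = 1.3e-15) for Eif6.

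The lysine methyltransferases that modify the elongation factors were spread in both directions. Eef2kmt, which methylates eEF2 (chr16:5244155-5255956), had the highest log2 fold change over IgG of all members. It stood at 11.1, 13.3 and 10.7 CPM in the input libraries, 11.7, 9.08 and 12.4 in the IgG libraries and 27.7, 29.1 and 27.5 in the p-UPF1 libraries. The p-UPF1 libraries were clearly above the others, and input and IgG overlapped. The log2 fold change was 1.34 ± 0.11 (SE, adjusted p = 4.9e-09) over IgG and 1.27 over input by edgeR. Eef1aknmt, which methylates eEF1A, was at 0.70 over IgG, Eef1akmt2 at 0.09 (adjusted p = 0.32 by edgeR, and -0.07 when scaled by library size alone) and Eef1akmt1 at -2.06.

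The paralogues were also compared as ratios within each library, which need no scaling between libraries. Only the change of a ratio is read here, since transcripts differ in length. The log2 ratio of Eif4a2 to Eif4a1 counts was -1.08, -1.26 and -1.21 in input, 0.32, 0.12 and 0.11 in IgG and 2.47, 2.34 and 2.37 in p-UPF1. The ratio of Eif4e2 to Eif4e was 0.17, 0.18 and 0.20 in input, 0.43, 0.20 and 0.41 in IgG and 2.45, 2.48 and 2.44 in p-UPF1. For both pairs the shift to p-UPF1 far exceeded the spread within a group, at 2.21 and 2.11 log2 units over IgG. The shift over IgG was 2.17 for Eif4e3 to Eif4e, 0.94 for Eif4g2 to Eif4g1, 0.87 for Eif4g3 to Eif4g1 and 0.24 for Eif4ebp2 to Eif4ebp1. It was 2.78 for Eif1a to Eif1ax, a pair chosen after its values were seen. Eif1b to Eif1 went the other way, by -1.03 over IgG and -0.12 over input. Eif5a2 to Eif5a overlapped with IgG, with a shift of -0.09. In the remaining 8 of the 9 pairs the p-UPF1 and IgG libraries did not overlap. The share of overlap among ratios of all genes was not computed. For levels of single genes, an unlike measure, 17.9% of all tested genes overlapped. The pairs are not independent, since some share Eif4e or Eif4g1. Eif4ebp2 to Eif4ebp1 overlapped between p-UPF1 and input. Against IgG, a pair without overlap gives p = 0.1 in a two-sided exact permutation test (0.112 after Benjamini-Hochberg adjustment over the 9 pairs), the smallest p that 3 against 3 libraries allow.

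**Figure D4:**
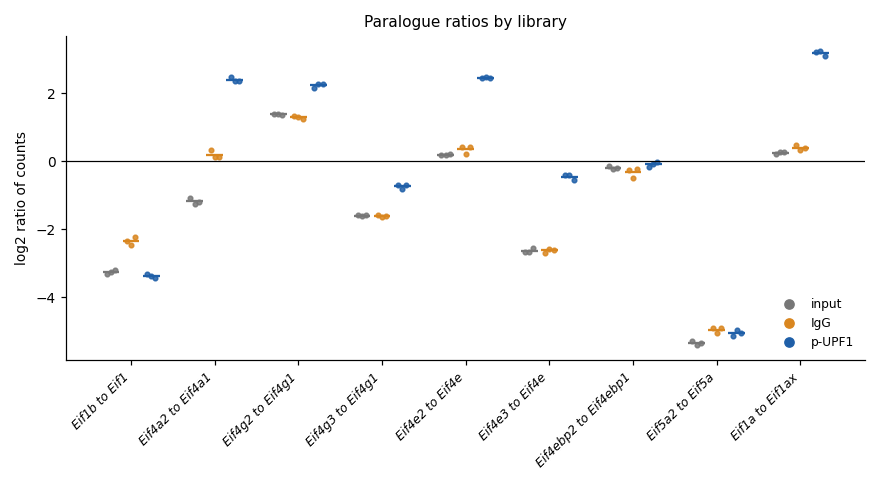
Log2 ratio of the counts of paralogous genes within each library, with a point for each library and a bar for each group mean. The p-UPF1 points of Eif4a2 to Eif4a1, of Eif4e2 and Eif4e3 to Eif4e and of Eif1a to Eif1ax lie more than 2 log2 units above the IgG points.

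The IgG precipitate itself differed from input for most factor mRNAs, mostly by little. At an adjusted p below 0.05 and any fold, 42 of the 59 members were lower in IgG than in input (71.2%, with 34.7% of all genes), and 6 were higher (10.2%, with 18.2% of all genes). The median log2 fold change was -0.29, against -0.10 over all tested genes. The largest decreases of IgG against input among members named above were those of Eif3f (-0.89), Eif1 (-0.84) and Eif3e (-0.78). The 6 higher genes before these changes of scaling were Eif4a2 (1.01), Eif3a (0.73), Eif5b (0.54), Eif4b (0.31), Eef1aknmt (0.17) and Eif4enif1 (0.16). Eif4a2 and Eif3a carry small nucleolar RNA genes in the annotated span of the gene, as do Eef2, Eif4g1, Eif5 and Eef1b2, which were not higher in IgG than in input.

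Gene structure, which the choice of members did not use, differed along the range. In the RefSeq transcript taken for each gene, the 3′ UTR of the 8 members higher than IgG measured 976 to 2135 bases, with a median of 1480. That of the 28 lower members measured 35 to 6221 bases, with a median of 387, and that of the 23 members in between had a median of 738. A 3′ UTR shorter than 500 bases was found in 0 of 8 higher, 8 of 23 intermediate and 19 of 28 lower members (0%, 34.8% and 67.9%), beside 8.65%, 27.0% and 57.8% of all tested genes of these classes. The same order was seen over all tested genes, with medians of 1547, 1022.5 and 375 bases for higher, intermediate and lower genes. Across the 59 members the Spearman correlation of 3′ UTR length with the log2 fold change over IgG was 0.50, and it was 0.36 across 11896 tested genes with an annotated transcript. Within eIF3 it was 0.50 over 14 genes, which include the copies Eif3j1 and Eif3j2. Those have the longest 3′ UTRs of the complex (1534 and 1537 bases) and its highest log2 fold changes (1.02 and 0.50, the latter not past the threshold). The correlation without them was not computed, so an order among the other subunits is not shown by this value. All are correlations across genes of the same 9 libraries, not across samples. Among the lower members, Eif1ax and Eif5a2 have 3′ UTRs of 4208 and 4391 bases. Eif2b4 and Eif3c have 43 and 87 bases and stood at -0.49 and -0.91 over IgG on the log2 scale.

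**Figure D5:**
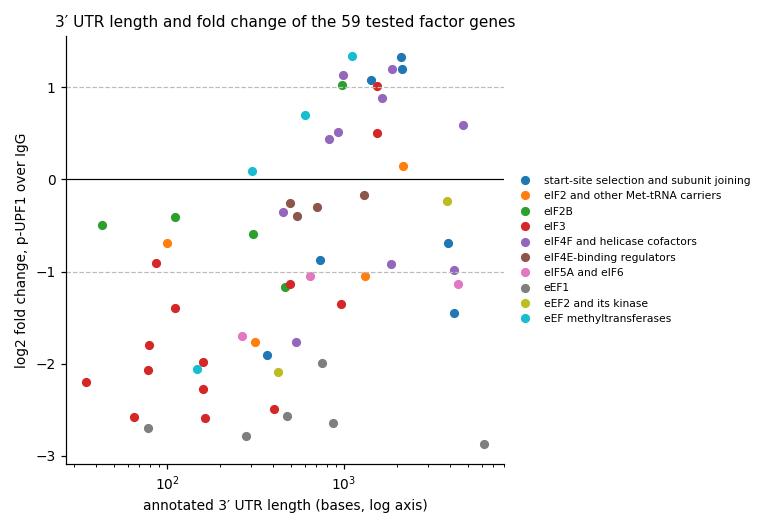
Annotated 3′ UTR length (log axis) against the log2 fold change of p-UPF1 over IgG for the 59 tested members, coloured by complex, with dashed lines at -1 and 1. The 8 members above 1 have 3′ UTRs of 976 to 2135 bases, while eIF3 genes with fewer than 200 bases all lie below 0.

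Other features classically tied to NMD were less marked. An upstream ATG in the 5′ UTR was annotated in 3 of 8 higher, 7 of 23 intermediate and 5 of 28 lower members, against 48.5%, 50.9% and 32.3% of all tested genes of these classes. A transcript that GENCODE assigns to NMD existed for 2 of 8 higher, 6 of 23 intermediate and 5 of 28 lower members, against 29.1%, 32.2% and 21.6%. No member had an exon junction more than 50 bases past the stop codon in its RefSeq transcript, and 31 of 11896 tested genes had one. Coding length had a Spearman correlation of -0.04 with the log2 fold change over IgG over the 59 members. The level in input, in CPM per kilobase of transcript, ran against it, at a Spearman correlation of -0.48 over the 59 members and -0.32 over 11896 genes. The median member stood at 84.9 CPM per kilobase in input and the median tested gene at 11.5. The part of abundance in the differences was not tested.

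Whether strand was used in counting the RIP-seq reads is not stated, so genes that overlap on opposite strands may share reads. Among the 8 higher members 4 overlap such a gene, Eif3j1 (Spg11), Eif1ad (Banf1), Eif4e3 (Gpr27) and Eef2kmt (Alg1), as do 7 of the 23 intermediate and 5 of the 28 lower members. Over the 12857 tested genes with a RefSeq position, the shares were 41.1%, 41.2% and 30.5% in these classes. The annotated spans of these higher members shared 107, 64, 507 and 755 bases with the partner, in that order. Spg11, Banf1 and Alg1 had log2 fold changes over IgG of -0.43, -2.27 and -0.70, and Gpr27 was too low to test. Among the lower members, Eif5a (-1.04) shares 345 bases with Gps2, which moved the same way at -1.12, whereas the partners of Eif3m and Eef1d, Ccdc73 and Tigd5, were at -0.33 and -0.15. Eif4a2 overlaps Rfc4, which was at -1.85. The part of shared reads in these values was not tested.

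Of the 65 members, 6 were not tested. Eif2s3y had 1 count in all libraries together and Eif4e1b, the oocyte form of the cap-binding protein, had 0 counts. Eef1akmt3, the pseudogene Eif1-ps3, the Eif4a3 copy Eif4a3l1 and Eif2c5, whose symbol matches the rule although it belongs to the Argonaute names, also did not pass the count filter.

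Partner genes of the same pathway were taken from a list of 30, all of which were tested. Of these, 2 were higher in p-UPF1 than in IgG by at least 1 log2 unit, where 22.2% of all tested genes were, and 6 were lower, where 21.9% were. Their median was 0.03 over IgG. The 2 higher genes were Paip2b, a repressor of poly(A)-binding protein, and Mtif3, a mitochondrial initiation factor, and both met the combined criterion, which 6.25% of all tested genes met. Paip2b stood at 64.0, 64.1 and 61.0 CPM in the input libraries, 64.3, 64.9 and 72.3 in the IgG libraries and 376, 394 and 390.3 in the p-UPF1 libraries. Mtif3 stood at 14.1, 15.4 and 14.6 CPM in the input libraries, 16.1, 15.2 and 15.7 in the IgG libraries and 77.3, 82.3 and 80.9 in the p-UPF1 libraries. For both genes input and IgG were close and p-UPF1 was far above them. Log2 fold changes over IgG were 2.53 ± 0.05 (SE, adjusted p = 7.1e-17) and 2.36 ± 0.06 (SE, adjusted p = 1.5e-15) by edgeR, and over input they were 2.62 and 2.45. The lower genes were Pabpc1, the main poly(A)-binding protein that contacts eIF4G (-2.19 over IgG), Pdcd4, an inhibitor of eIF4A (-1.80), Mcts1, which acts in re-initiation (-1.46), and the mitochondrial elongation factors Tufm (-1.46), Tsfm (-1.38) and Gfm1 (-1.08). Pabpc1 fell in the range of the eEF1 and eIF3 genes, at 648 ± 48.1 CPM in p-UPF1 beside 2947 ± 66.3 CPM in IgG (SD, n = 3). The cytosolic recycling factor Abce1 and the RNA helicases Ddx3x and Dhx29 were at 0.27, -0.40 and -0.44 over IgG. The hypusine enzymes Dhps and Dohh, which modify eIF5A, were at 0.66 and 0.30 over IgG and so did not share the direction of Eif5a.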

How the data were processed

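Raw read counts per gene and library were deposited by the authors, with genes given as NCBI Gene IDs. The submitters' processing notes name cutadapt, HISAT2, featureCounts and mm10, without versions. The study's RNA-seq methods name unstranded alignment, and strand use for the RIP-seq reads is not given in the sources used here. The library kit was directional. The counts hold no molecular identifiers, so counting error covers sampling only. Columns carry letters where the labels carry numbers, so each was assigned to its group only, without pairing. Nothing in the labels says that the libraries of a group came from separate mice, and p-values then measure the spread between these libraries, which may be technical.

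Of 27179 gene rows, 25275 matched a RefSeq symbol. The 13129 genes kept by filterByExpr (minimum count 10, minimum total 15) held 99.9% of all counts. Library sizes were adjusted by TMM, with a p-UPF1 library as the reference, and fitted over all 9 libraries (6 residual degrees of freedom) with edgeR 4.0.16 in R 4.3.3. The quasi-likelihood test was two-sided, p-values were adjusted by Benjamini-Hochberg over all tested genes, and the prior count was 0.125. SE were derived from the test statistic. DESeq2 1.42.0 and limma 3.58.1 served as alternatives, and all 3 tools were tested on simulated data.

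Transcript lengths and UTRs came from RefSeq on GRCm38.p6, and NMD transcripts from GENCODE M21. Of the 65 members, 48 matched the RefSeq promoter table. Every member could be named. Values per library were given for the 6 highest and 6 lowest log2 fold changes over IgG at a mean of at least 10 CPM, for paralogues, and for further members and partners chosen after their values were seen. The members, complexes, partner genes and markers were chosen with earlier results of these data known. A further B cell marker of the list and the start window of 1 of the 5 highest factors are not reported here.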

Additional observations from a re-analysis of the deposited data

How the results depend on the processing

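Counts of factor genes were recomputed under 13 alternative settings and with each of the 9 libraries left out. The number of members meeting the combined criterion was 0 throughout. The refits could hardly change this count, since the largest log2 fold change over input was 1.45 against a minimum of 2. The 8 members higher in p-UPF1 than in IgG by at least 1 log2 unit became 4 when scaled by library size alone, 4 with upper-quartile factors and 5 with an input library as the TMM reference. Their log2 fold changes stayed positive and past the adjusted p threshold in these fits, and the fold minimum was what some no longer reached. The 5 members higher than input became 3 with upper-quartile factors and 3 when edgeR's glmTreat tested against the fold minimum. All other counts stayed within 1.5 times the reported value. With a library left out, the counts ran from 7 to 8 and from 26 to 28 for higher and lower than IgG, from 4 to 5 and from 30 to 31 against input, 18 throughout for lower by at least 2 log2 units, and from 5 to 6 and from 38 to 42 for IgG against input. Scaling by library size alone moved the median of all genes over IgG from -0.03 to -0.19, and that of the members from -0.92 to -1.09. In all 21 refits without a fold minimum, the eEF1 median over IgG lay between -2.84 and -2.56 and the eIF3 median between -2.05 and -1.84. Among single members, 53 of 59 kept their direction and their side of the threshold over IgG in every such refit, 55 over input and 39 for IgG over input. The sign turned in at least 1 refit for 2 members over IgG (Eef1akmt2 and Eif2s3x), 3 over input and 8 for IgG over input. Of these, 3 values had been past the threshold. Eif2s3x over IgG was -0.019 by library size alone. Eif4enif1 over input was 0.030 with an IgG library as the TMM reference and 0.035 without the low-count filter. Eef2 for IgG over input was 0.030 by library size alone, 0.021 with an input reference, 0.014 with an IgG reference, 0.0021 without the filter and 0.021 with only the 2 groups compared in the fit. The causes of these changes were not tested. The low-count filter left Eef1a2, with at most 16 counts, as the shallowest tested member, and its call over IgG was lost in 4 refits. The count columns carry letters in place of replicate numbers, and the labels do not say that libraries of the same letter belong together. Deviations from the group means correlated at -0.0051 to 0.054 in the 9 pairs of libraries of the same letter in different groups. In the 18 pairs of different letters they correlated at -0.056 to 0.022. For letters A and B every same-letter value (0.032 to 0.054) exceeded every different-letter value, and for letter C none did. Whether the letters mark libraries from the same lysate is not given. A fit with the letter as a replicate block, added after seeing the data, gave 8 higher and 28 lower members over IgG, 5 and 30 over input, 18 lower by at least 2, 0 by the combined criterion, and 6 and 44 for IgG over input. Over IgG and over input it ended the call of Eef2k over IgG (adjusted p = 0.052 by edgeR) and no other.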
